A study of Mus musculus with 2 samples.

Results

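The keratins described here were the 8 that separate the epithelial layers of the mammary gland, namely the luminal keratins Krt7, Krt8, Krt18 and Krt19 and the basal keratins Krt5, Krt14, Krt15 and Krt17. They were chosen by name as known markers of the layers, 4 for each, with earlier results of these data known. They made up 8 of the 25810 gene symbols measured and 8 of the 50 rows carrying a keratin symbol. All 8 had reads in both libraries and passed the minimum level given below. RNA-Seq was performed on mammary epithelial cells (MECs) from inguinal glands at lactation day 3, with 1 library from wild type (WT) mice and 1 from Igfbp7-/- mice. Igfbp7 encodes a secreted insulin-like growth factor binding protein, and the knockout, in which exon 1 was deleted, was systemic, so that every cell type of the animal lacked the gene. The labels give C57BL/6 as the genetic background of both libraries, whereas the methods describe the knockout as generated on the CD1 background. Cells of both genotypes had been depleted of lineage positive cells by magnetic separation against CD45, Ter119 and a marker that is CD31 in the methods and CD35 in the labels. The age of the mice and the number of animals in each library were not found in the labels or the methods.

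Keratins are the intermediate filament proteins of epithelial cells. A type I keratin pairs with a type II keratin to build a filament, and the pair a cell uses reflects its layer. In the mammary gland the inner luminal cells, which make milk during lactation, are known for the pair of Krt8 (type II) and Krt18 (type I), together with Krt7 (type II) and Krt19 (type I). The outer basal layer, which consists mostly of contractile myoepithelial cells, is known for the pair of Krt5 (type II) and Krt14 (type I), together with the type I keratins Krt15 and Krt17.

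The design allows the keratins of the 2 layers to be compared between the MECs of the 2 genotypes. With 1 library per genotype there was no replicate error and no test could be made, so the values below describe these 2 libraries. The intervals given are 95% intervals of counting error only (exact Clopper-Pearson intervals on read pairs unless another kind is named), and they leave out the variation between animals and between cell preparations. Levels are in RPM, the reads of a gene scaled to the total reads of the library. Levels of different genes are compared in RPKM, which is RPM per kilobase of gene length. Changes are log2 ratios of Igfbp7-/- to WT computed from RPM + 0.1. A gene was counted as higher or lower at a ratio of at least 1.5, the fold threshold of the study. The P value and quality cutoffs of the study were not applied. The background was the 14026 genes that reached 1 RPM in WT, in Igfbp7-/- or in both.

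The reads listed on genes numbered 28276004 for WT and 25323803 for Igfbp7-/-, and these were 82.4% and 72.3% of the totals behind the RPM. A level of 3 reads corresponded to 0.0874 RPM in WT and 0.0857 RPM in the knockout. Igfbp7 itself had 152 RPM (5224 reads) in WT and 1.06 RPM (37 reads) in the knockout, a log2 ratio of -7.04, which matched the labels of the libraries. The general epithelial markers Epcam and Cdh1, which encode cell surface adhesion proteins and were named after their values were seen, had 338 and 349 RPM in WT and 482 and 455 RPM in Igfbp7-/-. Both libraries thus carried epithelial RNA, as their labels state. Epcam and Cdh1 are also counted among the luminal markers other than keratins below.

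All 4 luminal keratins were higher and all 4 basal keratins were lower in the Igfbp7-/- MECs than in the WT MECs. The members of the luminal group were 2.77 to 7.47 times higher, and those of the basal group were 2.12 to 13.5 times lower. Among the 14026 genes of the background, 21.4% were higher and 23.0% were lower by at least 1.5 times. At a ratio of at least 2 the counts were again 4 of 4 and 4 of 4 on the deposited RPM, and the shares of the background were 9.64% for higher and 13.8% for lower genes. When the RPM were scaled to the reads on listed genes, 2 of 4 basal keratins stayed past a ratio of 2, with Krt14 and Krt17 at log2 ratios of -0.95 and -0.90. The median log2 ratio was 1.89 over the luminal keratins, -1.40 over the basal keratins and 0.035 over the background. The lowest log2 ratio among the luminal keratins lay 2.55 above the highest among the basal keratins, so the 2 groups did not overlap.

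**Figure D1:**
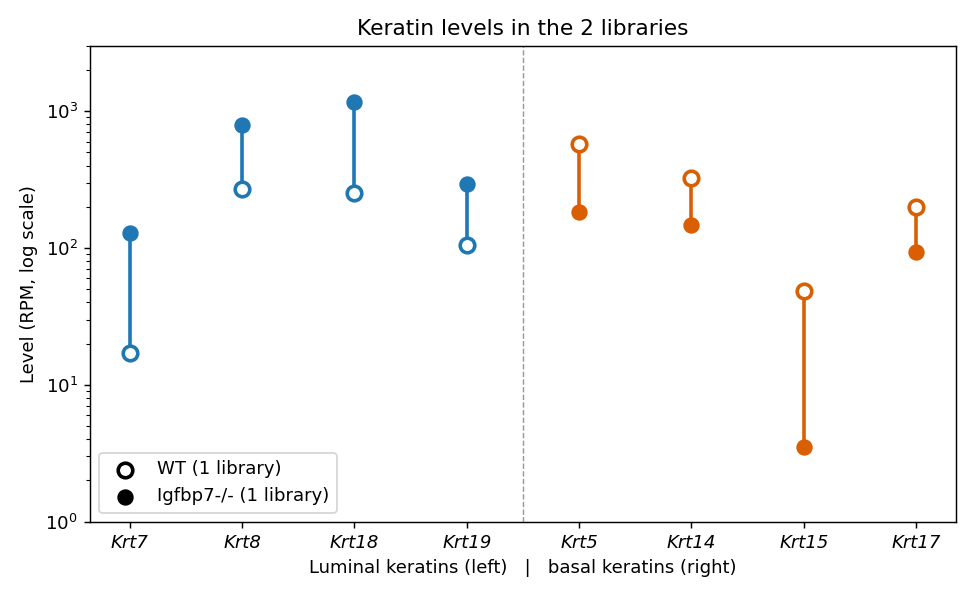
Level of each keratin in RPM on a log scale, with open circles for the WT library and filled circles for the Igfbp7-/- library (1 library each, no error bars). The filled circle lies above the open circle for Krt7, Krt8, Krt18 and Krt19 and below it for Krt5, Krt14, Krt15 and Krt17, and Krt7 and Krt15 show the longest lines.

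Among the luminal keratins, Krt18 had the highest level in Igfbp7-/- MECs. Krt18, the type I partner of the luminal pair, had 8597 reads in WT and 41103 in Igfbp7-/-, or 250.4 RPM and 1174 RPM. Its log2 ratio was 2.23 (2.18 to 2.28), and 1.10% of the background genes had a higher one. Krt8, its type II partner, had 9202 and 27627 reads, or 268 RPM in WT and 789 RPM in the knockout. Its log2 ratio was 1.56 (1.51 to 1.61), with 3.31% of the background genes above it. Both partners of the luminal pair were thus higher in the knockout library, Krt18 by 4.69 times and Krt8 by 2.94 times. The ratio of Krt8 to Krt18 in RPKM was 0.830 in WT and 0.521 in Igfbp7-/-. Its log2 change of -0.67 (-0.74 to -0.60) was beyond counting error, by a normal approximation on read pairs, as for the other ratios between keratins. Counting error leaves out the effect of sequence shared with other loci, of which Krt8 has more than Krt18, as given below.

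Krt19, a small type I keratin of luminal cells that lacks most of the tail domain, had 3620 reads in WT and 10218 in Igfbp7-/-, or 105 RPM and 292 RPM. The log2 ratio of Krt19 was 1.47 (1.39 to 1.55), the smallest of the luminal group. Krt7, a type II keratin of simple and ductal epithelia, had 586 reads in WT and 4490 in Igfbp7-/-, or 17.1 RPM and 128 RPM. The log2 ratio of Krt7 was 2.90 (2.73 to 3.09), the largest of the luminal group, and 0.421% of the background genes had a higher ratio. Krt7 also rose against the other luminal keratins, from 0.0718 to 0.183 of the RPKM of Krt8 and from 0.152 to 0.414 of the RPKM of Krt19.

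Among the basal keratins, the partners Krt5 and Krt14 had the highest levels in WT MECs. Krt5, the type II partner of the basal pair, had 19885 reads in WT and 6385 in Igfbp7-/-, or 579 RPM and 182 RPM. Its log2 ratio was -1.67 (-1.73 to -1.61), and 5.82% of the background genes had a lower one. Krt14, its type I partner, had 11186 and 5196 reads, or 326 RPM in WT and 148 RPM in the knockout. Its log2 ratio was -1.13 (-1.20 to -1.07), with 11.7% of the background genes below it. Both partners were lower in the knockout library, and Krt5 more so: the ratio of Krt5 to Krt14 in RPKM was 1.36 in WT and 0.943 in Igfbp7-/-, with a log2 change of -0.53 (-0.62 to -0.44).

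Krt17, a type I keratin of myoepithelial cells and skin appendages that is also induced by injury, had 6834 reads in WT and 3286 in Igfbp7-/-, or 199 RPM and 93.8 RPM. The log2 ratio of Krt17 was -1.08 (-1.17 to -0.9997), the smallest change of the 8 keratins, and 12.5% of the background genes had a lower ratio. The ratio of Krt14 to Krt17 in RPKM was 1.49 in WT and 1.44 in Igfbp7-/-, and its log2 change of -0.05 (-0.16 to 0.06) was within counting error. Krt15, a type I keratin of basal cells in stratified epithelia and the hair follicle bulge, had 1653 reads in WT and 122 in Igfbp7-/-, or 48.2 RPM and 3.48 RPM. The log2 ratio of Krt15 was -3.75 (-4.19 to -3.41), the largest change of the 8 keratins, and 0.399% of the background genes had a lower ratio. The ratio of Krt14 to Krt15 in RPKM was 6.93 in WT and 43.6 in Igfbp7-/-, so Krt15 was lowered more than Krt14 beyond counting error (log2 change 2.65, 2.27 to 3.04).

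**Figure D2:**
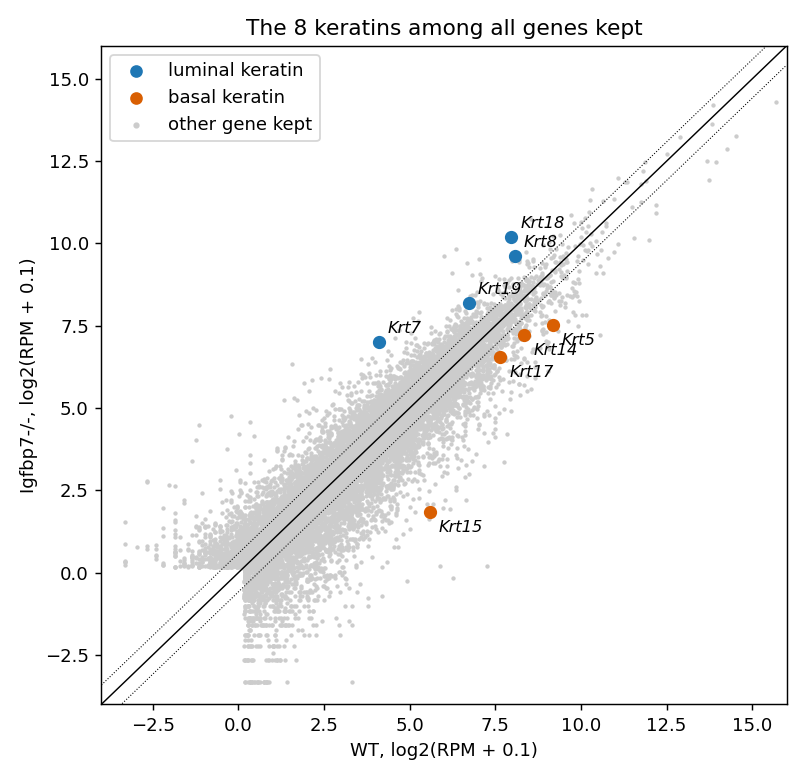
Level of every gene kept (grey) in the Igfbp7-/- library against the WT library, both as log2(RPM + 0.1), with luminal keratins in blue and basal keratins in orange. The solid line marks equal levels and the dotted lines a ratio of 1.5, and the 8 keratins lie outside the dotted lines, 4 on each side.

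Per length, the order of the 8 keratins differed between the libraries. In WT the order from high to low RPKM was Krt5 (265), Krt14 (194), Krt18 (179), Krt8 (149), Krt17 (130), Krt19 (69.9), Krt15 (28.0) and Krt7 (10.7). In Igfbp7-/- the order was Krt18 (838), Krt8 (437), Krt19 (193), Krt14 (88.3), Krt5 (83.3), Krt7 (80.0), Krt17 (61.3) and Krt15 (2.03). Krt5 and Krt14 thus led in WT, and Krt18, Krt8 and Krt19 led in Igfbp7-/-. The genes share sequence with other loci to different degrees, Krt8 the most, as given below, so the place of Krt8 in each order is uncertain. Of the 7 neighbouring pairs in each order, all in WT differed beyond counting error, the closest being Krt14 at 1.08 times Krt18 (1.04 to 1.13). In Igfbp7-/- the neighbours Krt5 and Krt7 did not differ beyond counting error, with a ratio of 1.04 (0.986 to 1.10). These intervals came from a normal approximation on read pairs. Without replicates, the spread of these levels between animals is unknown.

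Against all 25127 genes with an RPKM, Krt5 was at rank 140 in WT and rank 436 in Igfbp7-/-, and Krt18 moved from rank 201 to rank 36. Krt7 moved from rank 4103 to rank 460, and Krt15 from rank 1765 to rank 9748. Krt8, Krt19, Krt14 and Krt17 stayed within the top 2.54% of genes in both libraries.

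Summed over each group, the luminal keratins had 641 RPM in WT and 2383 RPM in the knockout, which was 3.72 times higher. The basal keratins had 1152 RPM in WT and 428 RPM in the knockout, which was 2.69 times lower. The 8 keratins together had 1793 RPM in WT and 2811 RPM in the knockout, a 1.57-fold higher level.

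The share of basal keratins among the keratin reads does not depend on the total used for RPM. Basal keratins made up 64.3% of the 61563 keratin reads in WT (63.7 to 64.8) and 15.2% of the 98427 keratin reads in Igfbp7-/- (14.9 to 15.5). Per length, the basal share of the summed RPKM was 60.2% in WT and 13.2% in Igfbp7-/-. Stated as a ratio, luminal keratins were at 0.662 times the RPKM of basal keratins in WT and at 6.60 times in Igfbp7-/-. By these counts, the balance of the layer keratins was on the basal side in the WT library and on the luminal side in the knockout library. Both shares depend on how reads with several mapping places were counted, which is not known. This matters most for Krt8, with 63.5% of its 35-base stretches also found elsewhere in the genome, as given below.

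**Figure D3:**
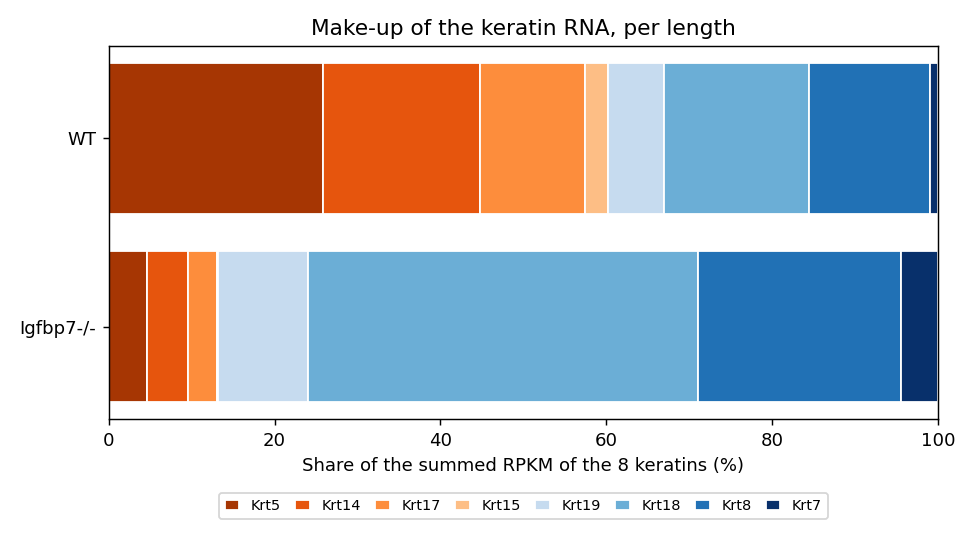
Share of each keratin in the summed RPKM of the 8 keratins (%), with 1 bar for WT and 1 for Igfbp7-/-, basal keratins in orange shades and luminal keratins in blue shades. The basal part covers 60.2% of the WT bar and 13.2% of the Igfbp7-/- bar, and Krt18 alone covers 47.0% of the latter.

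By single gene, Krt18 made up 17.5% of the summed RPKM of the 8 keratins in WT and 47.0% in Igfbp7-/-. Krt5 made up 25.8% and 4.67%, and Krt15 made up 2.73% and 0.114%. The RPKM of the type I members summed to 1.42 times that of the type II members in WT and 1.97 times in Igfbp7-/-. More type I than type II genes are among the 8, and Krt5 is the only type II gene of the basal group. An excess of type I is thus partly set by the choice of genes. The type I to type II ratio was higher in the knockout library within each group as well. It was 1.56 in WT and 1.995 in Igfbp7-/- among the luminal keratins, and 1.33 and 1.82 among the basal keratins.

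The 8 keratins lie in the 2 keratin gene clusters of the mouse genome, type I on chromosome 11 and type II on chromosome 15. Krt18 is the exception, as a type I gene at the edge of the type II cluster. In the NCBIM37 build, Krt15 is at chr11:99993072-99997263 and Krt19 at chr11:100002124-100009979, both on the minus strand. These neighbours are 4860 bp apart with no other keratin gene between them, and they changed in opposite directions. Krt14 at chr11:100064476-100068862 and Krt17 at chr11:100117531-100122343, also on the minus strand, have 1 keratin gene between them, Krt16. Krt8 at chr15:101827142-101834773 on the minus strand and Krt18 at chr15:101858647-101862457 on the plus strand are 23873 bp apart with no other keratin gene between them, and both were higher in Igfbp7-/- MECs. Krt7 at chr15:101241474-101260744 on the plus strand and Krt5 at chr15:101537501-101543322 on the minus strand lie in the same cluster and changed in opposite directions.

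Some keratins share sequence with other loci, which limits the counts because the sources used here do not say how reads with more than 1 mapping place were counted. Of the 35-base stretches of the Krt8 transcript, 63.5% had an exact copy elsewhere in NCBIM37, all of them outside annotated keratin genes. The figure was 25.6% for Krt14, mostly in Krt16, and 12.1% for Krt17, mostly in Krt14. It was 9.83% for Krt5, 7.76% for Krt18, 4.68% for Krt7 and 2.94% for Krt15, and Krt19 had none. The Krt7 figure is for its longest protein-coding transcript of 4094 bp, whereas the length behind its RPKM was 1602 bp, so it may not describe the sequence counted. The levels of Krt8 and Krt14 are thus the least certain of the 8, while Krt18, Krt19, Krt5 and Krt15 rest on mostly unique sequence. The orders, shares and ratios between keratins given above carry this limit.

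Promoter windows from RefSeq (250 bases before to 50 after the start site, build GRCm38.p6) matched 5 of the 8 genes, namely Krt5, Krt7, Krt8, Krt14 and Krt18. The windows of Krt7, Krt8 and Krt18 are shown as those of luminal keratins that were higher together, and that of Krt5 as the basal keratin with the highest WT level. The positions are those of the identical sequence in NCBIM37, with Krt7 at chr15:101242584-101242883 (plus strand), Krt8 at chr15:101834724-101835023 (minus strand), Krt18 at chr15:101858397-101858696 (plus strand) and Krt5 at chr15:101543287-101543586 (minus strand). Capitals mark matches to the motifs named after the sequences, on either strand.
Krt7: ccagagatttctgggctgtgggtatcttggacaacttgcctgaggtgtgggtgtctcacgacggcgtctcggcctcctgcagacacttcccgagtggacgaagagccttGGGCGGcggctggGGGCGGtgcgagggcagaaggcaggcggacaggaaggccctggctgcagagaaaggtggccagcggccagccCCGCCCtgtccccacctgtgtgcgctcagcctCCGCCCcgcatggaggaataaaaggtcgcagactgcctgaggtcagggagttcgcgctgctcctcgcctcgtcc
Krt8: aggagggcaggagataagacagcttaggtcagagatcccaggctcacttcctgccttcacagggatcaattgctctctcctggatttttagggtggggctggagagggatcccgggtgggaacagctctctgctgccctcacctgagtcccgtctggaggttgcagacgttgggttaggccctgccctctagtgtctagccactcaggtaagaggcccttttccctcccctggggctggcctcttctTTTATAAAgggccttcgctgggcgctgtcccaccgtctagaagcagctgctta
Krt18: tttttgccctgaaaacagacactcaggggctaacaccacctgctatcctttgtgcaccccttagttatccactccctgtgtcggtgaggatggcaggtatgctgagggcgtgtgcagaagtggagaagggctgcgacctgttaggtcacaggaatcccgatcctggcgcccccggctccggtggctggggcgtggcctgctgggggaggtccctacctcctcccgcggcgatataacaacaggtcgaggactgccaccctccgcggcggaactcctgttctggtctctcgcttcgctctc
Krt5: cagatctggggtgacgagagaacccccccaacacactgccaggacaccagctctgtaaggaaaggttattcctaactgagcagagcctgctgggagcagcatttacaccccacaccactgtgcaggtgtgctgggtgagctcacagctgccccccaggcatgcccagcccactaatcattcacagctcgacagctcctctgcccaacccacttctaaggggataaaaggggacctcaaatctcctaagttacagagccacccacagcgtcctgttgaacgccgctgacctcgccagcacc

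The motifs searched on both strands were the TATA box TATAAA, the Sp1 site GGGCGG, the AP-1 site TGANTCA and the STAT site TTCNNNGAA, the last recognised by the factors that carry the prolactin signal. Krt7 held 4 matches to GGGCGG, starting at -141, -128, -56 and -24 from the start site. Krt8 held TATAAA on both strands in overlapping letters starting at -3 and -1, so the matches span the start site of the window. Whether they serve as a TATA box was not tested. No match to the 4 motifs was found in the windows of Krt5, Krt14 and Krt18. Of all 32851 promoter windows of this length, 35.7% held GGGCGG, 13.6% TATAAA, 7.81% TGANTCA and 8.30% TTCNNNGAA. The luminal keratins shown had no motif of this set in common. The start site of the Krt14 window lies 1518 bp downstream of the outermost annotated start of the gene and is not printed, and that of Krt7 lies 1360 bp downstream of it, each at most 1 bp from the start of another annotated transcript. The letters of a window say nothing of whether a factor was bound there.

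The other keratins were much lower in both libraries. The 8 genes made up 95.2% of all keratin RPM in WT and 98.0% in Igfbp7-/-. Of the 42 other keratin genes listed, 11 had no reads, 21 stayed below 1 RPM in both libraries, and 10 were in the background set. The background shares for the counts here and in the lists below were 21.4% higher and 23.0% lower. Of the 10, 5 were higher and 5 lower, with a median log2 ratio of 0.13. Some of these calls rested on few reads. The lower Krt10 had 46 reads in WT and 24 in Igfbp7-/- (interval -2.11 to 0.099), and the higher Krt36 had 15 and 38 (0.099 to 2.91). Of the 10, the 4 that reached 10 RPM were Krt16, Krt6a, Krt23 and Krt80. Krt16 and Krt6a, the keratins of the hair follicle and of activated epidermis, had 38.2 and 23.1 RPM in WT and 14.2 and 4.37 RPM in Igfbp7-/-. With Krt6b they were the 3 of 4 stress and companion layer keratins in the background set, and all 3 were lower. Krt6a and Krt6b are near-identical copies, and Krt16 shares sequence with Krt14, so the split of reads between such genes is uncertain. Krt23 had 15.6 RPM in WT and 5.68 RPM in the knockout, and Krt80, a type II keratin, had 0.903 and 18.5 RPM, a log2 ratio of 4.21 (3.66 to 5.25). The keratins of suprabasal epidermis, hair and mucosa did not exceed 4.51 RPM in either library.

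Other markers of the basal layer were lower along with the basal keratins. Of the 12 basal and myoepithelial markers other than keratins, 10 were lower, none were higher, and the median log2 ratio was -1.70. Their summed level was 3500 RPM in WT and 1013 RPM in the knockout. Actg2, a smooth muscle actin, had 64.0 RPM in WT and 8.22 RPM in the knockout (log2 ratio -2.94), and Cnn1, which encodes the actin-binding protein calponin, had 143 and 18.6 RPM (-2.93). Lama3, a chain of the basement membrane protein laminin, had 405 and 75.3 RPM (-2.43). The part of smooth muscle cells outside the basal layer in the levels of Actg2 and Cnn1 was not tested. The 2 that did not reach the threshold were Oxtr, the oxytocin receptor that triggers myoepithelial contraction, with a log2 ratio of 0.21, and Snai2, a transcription factor of basal cells, with -0.41. These and the following genes named as falling short of a threshold were chosen after their values were seen.

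Most of the luminal markers other than keratins were higher along with the luminal keratins. Of the 16 listed, 15 were in the background set, and of these 9 were higher and 1 was lower, with a median log2 ratio of 0.94. Their summed level was 1610 RPM in WT and 2367 RPM in the knockout. The tight junction genes Cldn3 and Cldn4 had 21.6 and 294 RPM in WT and 97.4 and 718 RPM in Igfbp7-/-, with log2 ratios of 2.17 and 1.29. Esr1, the oestrogen receptor, had 4.46 and 10.9 RPM (1.28). The member that was lower was Gata3, a transcription factor of luminal cells, with 92.7 and 58.1 RPM (-0.67). The 5 that did not reach the threshold were Epcam (0.51), Kit (0.50), Cdh1 (0.38), Muc1 (-0.10) and Elf5 (-0.52).

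The genes of milk secretion, which are expressed by luminal alveolar cells, did not move with the luminal keratins. Of 9 secretory alveolar markers, 7 were lower and none were higher, with a median log2 ratio of -1.26. Wap, which encodes whey acidic protein, had 13731 RPM in WT and 3866 RPM in the knockout (-1.83), Glycam1 had 15705 and 5687 RPM (-1.47), and Csn2, which encodes beta-casein, had 53087 and 19970 RPM (-1.41). The 2 others were Btn1a1 and Xdh, both needed for the release of milk fat, with log2 ratios of -0.03 and 0.34. The secretory markers summed to 140024 RPM in WT and 53825 RPM in the knockout. With the RPM scaled to the listed reads without the 20 genes of highest RPM, the median log2 ratio was 1.94 for the luminal keratins and -1.36 for the basal keratins.

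**Figure D4:**
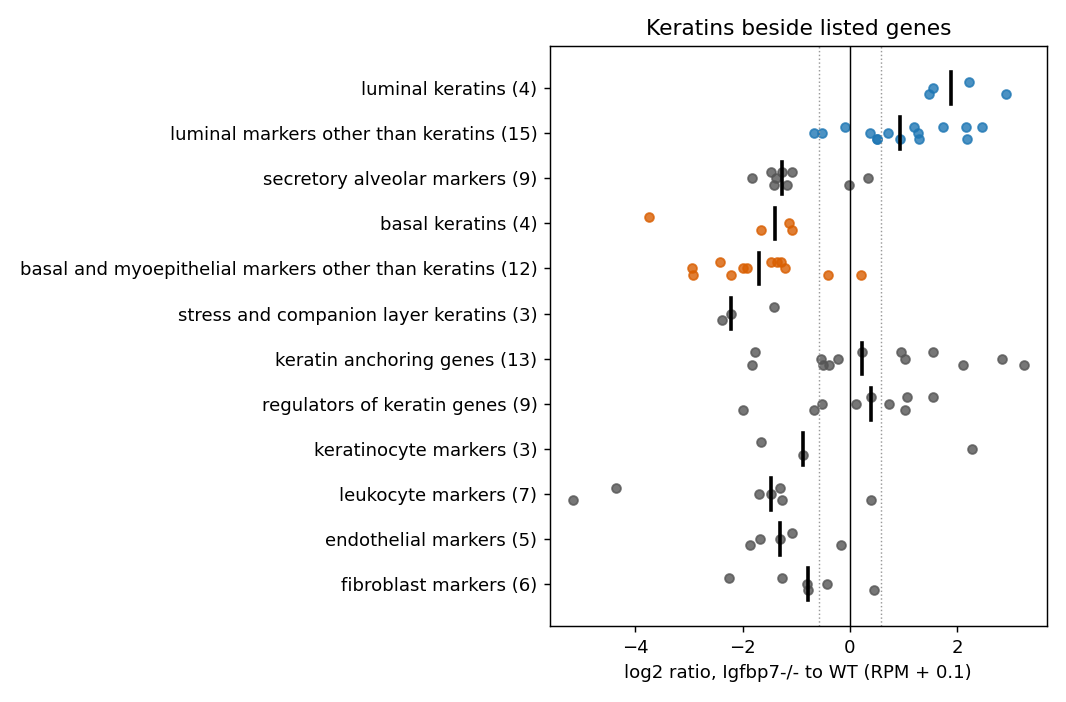
Log2 ratio of Igfbp7-/- to WT for the keratins and for genes of 10 other lists, with 1 point per gene in the background set, the number of genes in brackets and a black bar at the median; luminal lists are blue, basal lists orange and others grey, and dotted lines mark a ratio of 1.5. The basal keratins lie on the same side as the other basal markers, with medians of -1.40 and -1.70, and the luminal keratins (median 1.89) lie on the opposite side from the secretory alveolar markers (-1.26).

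The genes listed as anchoring or binding keratin filaments, mostly at desmosomes and hemidesmosomes, were split. Of 13, 6 were higher and 2 were lower, beside 21.4% and 23.0% of the background, with a median log2 ratio of 0.23. The largest changes were in genes of the plakin and plakophilin families, with Evpl (envoplakin) at 1.17 RPM in WT and 11.9 RPM in the knockout (3.24), Eppk1 (epiplakin) at 17.97 and 129.6 RPM (2.84), and Pkp2 (plakophilin 2) at 20.2 and 87.9 RPM (2.11). The 2 that were lower were Col17a1, a hemidesmosome collagen of basal cells, with a log2 ratio of -1.82, and Pkp1, a plakophilin of stratified epithelia, with -1.77. Of the integrin genes listed, Itgb4 was higher, with a log2 ratio of 1.55, and Itga6 did not reach the threshold (-0.55). Both integrin genes were named after their values were seen. Dsp and Plec, which encode the keratin-binding linkers desmoplakin and plectin, had log2 ratios of -0.51 and 0.23.

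Of 12 transcription factors listed as regulators of keratin genes, 10 were found by symbol and 9 were in the background set. Of these 9, 4 were higher and 2 lower, beside 21.4% and 23.0% of the background, with a median log2 ratio of 0.39. The share of lower factors was thus near that of the background. Trp63, which encodes p63, the factor known to switch on Krt5 and Krt14 in basal cells and also a member of the basal list, had 66.1 RPM in WT and 16.6 RPM in the knockout (-1.99). Klf5, a Kruppel-like factor of epithelia, had 86.3 and 254 RPM (1.56), and Ets2, an ETS factor, had 472 and 987 RPM (1.06). The other lower factor was Gata3.

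Markers of cell types that the preparation could also hold moved in part with the basal keratins. The methods report that few cells carried lineage markers after the separation, a contamination the authors deemed insignificant. Of 7 leukocyte markers, 6 were lower and none were higher, with a summed level of 202 RPM in WT and 69.6 RPM in the knockout. The range was wide, with Cd207, a marker of Langerhans cells, at 30.3 and 0.743 RPM and Lyz2 and Cd68 at 66.9 and 43.8 RPM in WT and 24.1 and 17.6 RPM in Igfbp7-/-. Of 5 endothelial markers, 4 were lower, with a summed level of 1055 and 352 RPM, and Pecam1, which encodes CD31, had 323 and 88.9 RPM. Cdh5 and Emcn had 584 and 54.0 RPM in WT and 184 and 21.9 RPM in Igfbp7-/-. Of 6 fibroblast markers, 4 were lower, with a summed level of 9060 and 4582 RPM, and Lum, Col3a1 and Col1a2 had log2 ratios of -2.25, -1.26 and -0.80. Of 5 adipocyte markers, 4 were in the background set with 3 lower and 1 higher, with a summed level of 567 and 193 RPM, led by Fabp4 at 543 and 173 RPM, and Lep was the higher one at 8.04 and 16.8 RPM. Of 5 erythroid markers, 4 were found and 3 were in the background set, none past the threshold, with Hbb-b1 at 669 and 697 RPM, Hba-a1 at 201 and 288 RPM and Alas2 at 19.1 and 12.8 RPM.

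Basal keratins are also made by skin, so markers of keratinocytes and hair follicles were examined. Of 12 keratinocyte markers, 3 were in the background set, with 1 higher and 2 lower, and the list summed to 39.8 RPM in WT and 26.5 RPM in the knockout. Ivl, Flg, Flg2 and Dsc1 had no reads in either library, and the sum was mostly Lgals7 at 34.3 and 10.8 RPM and Sbsn at 2.91 and 14.4 RPM. Of 9 hair follicle markers, 3 were in the background set, with 1 higher and 1 lower, and the list summed to 5.74 and 5.97 RPM, with no member at 10 RPM. Lgals7 was thus lower along with the basal keratins, as were Krt6a, Krt16 and Cd207, whereas Sbsn was higher. The part of skin, leukocytes, endothelial cells, fibroblasts and adipocytes in the keratin ratios was not tested. In these bulk libraries, fewer cells of a layer and less keratin RNA per cell cannot be told apart.

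By level in both libraries, the genes nearest to the mean of the luminal keratins (105 RPM in WT and 432 RPM in the knockout, geometric means) were Saa2 with 113 and 529 RPM, Dusp16 with 124 and 367 RPM and Angptl4 with 113 and 345 RPM. They lay 0.31 to 0.34 log2 units from it by Euclidean distance over the 2 libraries. The genes nearest to the mean of the basal keratins (206 and 55.0 RPM) were Oasl1 with 200.3 and 57.7 RPM, Znfx1 with 213 and 59.3 RPM and Ccl4 with 189 and 53.0 RPM, at 0.085 to 0.13 log2 units. Saa2 has a close relative in Saa1, so the split of their reads is uncertain. With 2 libraries such a match describes levels only.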

How the data were processed

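Poly(A) RNA of lineage-depleted MECs was sequenced on a SOLiD sequencer in 1 WT and 1 Igfbp7-/- library. Per the submitters' processing notes, Bowtie 0.12.3, SAMtools 0.1.15 and the mouse build mm9 were used, whereas the methods name a human build. Gene annotation and the handling of reads with several mapping places are not given in the sources used here. Each deposited file gives the raw count of reads on a gene and, as scaled by the authors, its RPM, which was the count divided by a total of 34327854 (WT) or 35016847 (Igfbp7-/-) reads. These totals exceed the listed reads, so a larger unlisted share lowers every RPM of a library. The RPKM deposited by the authors was the RPM divided by gene length. Rows without a symbol (50 per file, 0.0495% and 0.0670% of listed reads) were left out.

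Log2 ratios used RPM with a pseudocount of 0.1, which understates the changes of low genes, and genes reaching 1 RPM in either library. Counts were divided by 2 for intervals, because 75.8% (WT) and 74.1% (Igfbp7-/-) of counts up to 20 reads were even, as for read pairs. Reads are not independent molecules, so intervals cover counting error only. No test was made with 1 library per genotype. The members and lists were chosen with earlier results of these data known. Named were the 8 keratins, other keratins with at least 10 RPM, up to 3 genes per list with at least 10 RPM and the largest absolute log2 ratio, Igfbp7 and the 3 genes nearest to each group. The alternatives were pseudocounts of 1 and 0.01, RPKM, 4 other scalings or centrings (1 added after the data were seen), a ratio of 2, also joined with 2 of these scalings after the data were seen, minimum levels of 0 and 10 RPM, and basal shares over fewer genes. Gene positions, shared sequence and promoter positions were read from NCBIM37, the Ensembl name of mm9. The scripts were tested on simulated data. Python 3.11.15, numpy 2.4.6, pandas 2.3.3, scipy 1.17.1 and matplotlib 3.10.9 were used.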

Additional observations from a re-analysis of the deposited data

How the results depend on the processing

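Under the 7 alternative settings of pseudocount, unit and scale, all 56 values of the 8 keratins kept their direction and stayed past a ratio of 1.5. Of these 56 values, 14 lay outside the counting interval of the main value, all under the scalings to listed reads with or without rRNA and snRNA. RPKM uses the same gene length in both libraries and the median used for centring was 0.035, so these settings could hardly change a ratio. The counts of 4 of 4 held in 18 of 20 alternatives. The exceptions, added after the data were seen, joined a ratio of 2 with scaling to the reads on listed genes, with or without rRNA and snRNA, and left 2 of 4 basal keratins (Krt5 and Krt15), with Krt14 at log2 ratios of -0.95 and -0.93 and Krt17 at -0.90 and -0.88. Scaling to the reads on listed genes moved the median log2 ratio of the luminal keratins to 2.08 and that of the basal keratins to -1.21. Leaving out rRNA and snRNA from that total, a scaling added after the data were seen, gave 2.09 and -1.20. These scalings moved the median of all genes from 0.035 to 0.22 and 0.23. They also changed the split of higher and lower genes from 21.4% and 23.0% to 30.6% and 18.6%, and to 31.3% and 18.4%. Of the basal share of reads in WT, 64.3%, RPKM gave 60.2%, leaving out Krt15 63.3%, and Krt5, Krt14, Krt8 and Krt18 alone 63.6%. In Igfbp7-/-, 15.2%, RPKM gave 13.2% and the 4 genes alone 14.4%. No paired analysis was possible because each genotype had 1 library. Depth did not limit the 8 keratins, the lowest of which had 122 reads, whereas the variation between animals could not be estimated.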
